A study of Mus musculus with 6 samples.

Results

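RNA sequencing of dentate neuroepithelium from mice with both Sox11 alleles floxed (SOX11f/f, homozygous) was compared with that from mice with 1 floxed and 1 wild-type allele (SOX11f/+, heterozygous). These genotypes made up 4 of the 6 libraries of the study, 2 per genotype, chosen by their labels. The comparison ran over the 14556 of 35274 genes in the table that averaged 1 TPM or more over the 4 libraries (TPM, an abundance corrected for transcript length). The question was how much the second floxed allele changed, beside the spread within genotypes. All libraries are labelled embryonic day 14 (E14). The labels name the floxed genotypes haplodeficient and homodeficient, and the remaining 2 libraries were wild type, with no floxed allele. A floxed allele is flanked by loxP sites and is deleted only where Cre recombinase acts. The sources used here give neither the driver of Cre nor the strain or sex, and do not say whether libraries of a genotype came from separate embryos. All p-values therefore rest on the spread of these libraries alone, and that spread may be technical.

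Sox11 belongs to the SoxC group of transcription factors with Sox4 and Sox12, which bind DNA through an HMG box. SoxC factors are best known in the embryonic nervous system for switching on genes of newborn neurons, such as tubulins and Dcx. In the hippocampus, radial glia of the dentate neuroepithelium give rise through Eomes-expressing intermediate progenitors to the granule neurons of the dentate gyrus.

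In the 4 floxed libraries, 18902 to 19408 genes were above 0 TPM. The depth behind these values is unknown, since TPM does not record it. Markers of the labelled tissue were present in every floxed library, among them Sox2 (78.9 to 104 TPM), Emx2 (58.8 to 65.1 TPM), Lhx2 (223 to 236 TPM) and Prox1 (54.3 to 82.0 TPM), whereas Wnt8b, a marker of the hippocampal margin, was low (3.51 to 7.81 TPM). Genes of mature glia and neurons were present too, with Gfap at 335 to 576 TPM and Camk2a at 138 to 496 TPM. These levels are unusual for neuroepithelium at E14. Stage and tissue are known from the labels alone, and the source of these transcripts was not tested. The choroid plexus gene Ttr set libraries apart within each genotype: it was 11259 and 4.44 TPM in heterozygous replicates 1 and 2, and 6421 and 184 TPM in homozygous replicates 1 and 2. The Y-linked gene Ddx3y lay between 31.5 and 35.1 TPM in all 4, so the genotypes did not differ in the presence of Y-linked transcripts.

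Adding the second floxed allele was accompanied by a change past the threshold in 2 genes: Sox11 fell and the ribosomal pseudogene Rps13-ps1 rose. Reads of Rps13-ps1 can match its parent gene Rps13, so its own value is uncertain, as given below. In limma's test with Benjamini-Hochberg adjustment at 0.05, the 2 genes were 0.0137% of the genes tested, 1 in each direction (0.00687%). The next gene, Rps7, had an adjusted p of 0.306, and 14552 genes had an adjusted p above 0.9. Without adjustment, 299 genes (2.05%) had a p under 0.05, of which 168 (1.15%) were higher and 131 (0.9%) lower in homozygous libraries. With no true difference in any gene, a share of 0.05 would be expected on average, so 2.05% is no excess. The median difference over all genes was 0.01 on the log2(TPM + 1) scale, on which every log2 difference here is given, and the median size of a difference, sign aside, was 0.10. The middle 50% of genes (the interquartile range) lay between -0.09 and 0.13.

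**Figure D1:**
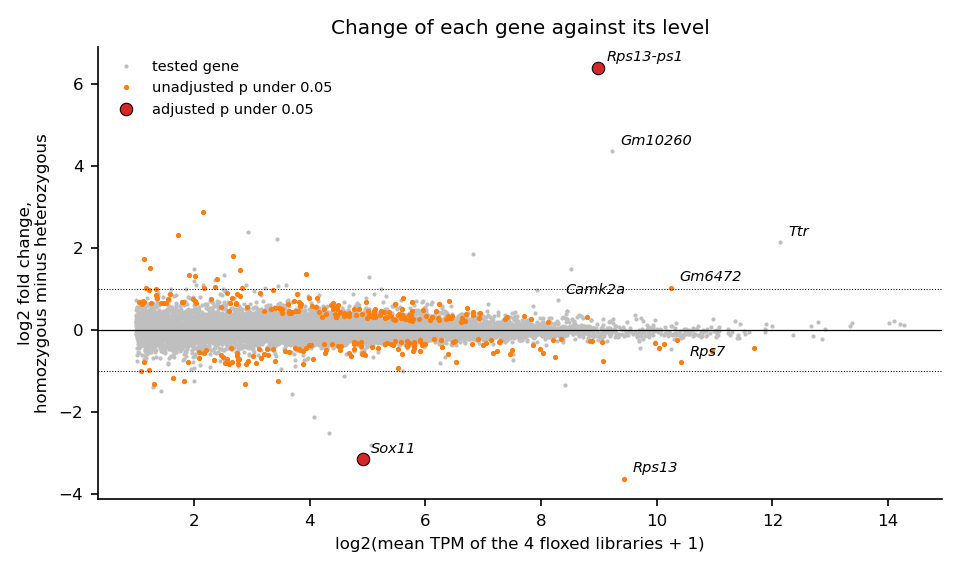
Log2 difference between homozygous and heterozygous libraries (vertical) against log2(mean TPM + 1) over these 4 libraries (horizontal), 1 point per tested gene. Dotted lines mark a 2-fold difference in TPM + 1. Red points mark Sox11 and Rps13-ps1, the 2 genes with an adjusted p under 0.05, and orange points the 299 genes with an unadjusted p under 0.05.

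The mean distance between the genotypes was smaller than the mean distance within them, and single pairs overlapped. Heterozygous replicates 1 and 2 differed by a root mean square of 0.482 over the tested genes (log2 scale) and homozygous replicates by 0.387. Across genotypes, heterozygous replicate 1 differed from homozygous replicates 1 and 2 by 0.334 and 0.440, and heterozygous replicate 2 from them by 0.405 and 0.353. The mean over the 4 pairs across genotypes was 0.383 and over the 2 pairs within genotypes 0.434, a ratio of 0.882. Both distances between libraries of the same replicate number were below both distances within a genotype. Counts of genes differing more than 2-fold in TPM + 1 overlapped. They were 602 between heterozygous replicates and 343 between homozygous replicates, and 162, 253, 393 and 466 in the 4 pairs across genotypes.

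Of the sum of squares among the 4 libraries, genotype held 21.7%, replicate number 51.5% and the remainder 26.7%. These parts have equal degrees of freedom, so their shares would be equal on average if the labels made no difference. Genotype held the smallest share. The first principal component, with 54.4% of the variance, put heterozygous replicate 1 (-29.0) and homozygous replicate 1 (-12.9) on one side and homozygous replicate 2 (16.3) and heterozygous replicate 2 (25.6) on the other. Its leading genes were mostly those of the choroid plexus, among them Ttr, Kcne2, Aqp1, Clic6 and Kcnj13. The third component, with 20.3% of the variance, separated the genotypes, with heterozygous libraries at -14.9 and -8.31 and homozygous libraries at 20.5 and 2.74. Wild-type libraries were at a mean distance of 0.546 from heterozygous and 0.577 from homozygous libraries, but wild-type replicate 2 was as close to heterozygous replicate 2 (0.386) as the homozygous replicates were to each other.

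**Figure D2:**
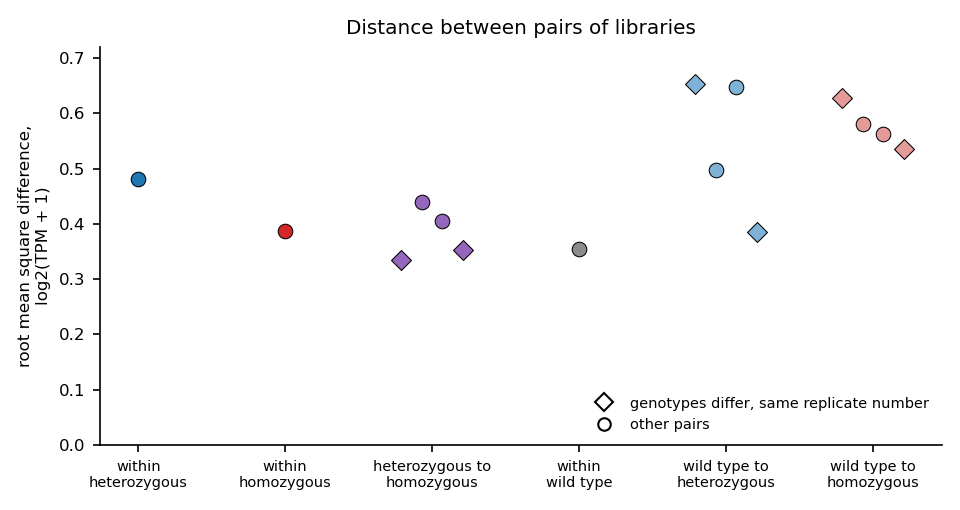
Root mean square difference in log2(TPM + 1) over the 14556 tested genes (vertical) for each pair of libraries, grouped by the genotypes of the pair (horizontal), with diamonds for pairs of different genotype and the same replicate number. The 4 heterozygous-to-homozygous pairs lie between 0.334 and 0.440, below the heterozygous replicate pair at 0.482.

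The spread sets how small a difference could be seen. The median standard error of a log2 difference was 0.17 and the median half-width of its 95% interval was 0.40. For 12857 genes (88.3%) the interval lay within 1 log2 unit either way, so that a change of more than 2-fold in TPM + 1 lay outside it. For low genes this does not exclude a 2-fold change in TPM. The values of the genotypes did not overlap, both homozygous libraries being on the same side of both heterozygous ones, for 4227 genes (29%): 2238 (15.4%) were higher and 1989 (13.7%) lower in homozygous libraries. Where genotype plays no part, 2 against 2 libraries separate in this way with a probability of 0.33, so 29% is no excess. For 2628 genes (18.1%), the difference between the genotype means exceeded both replicate differences. Fitted differences larger than 2-fold in TPM + 1 were found for 53 genes, 36 higher and 17 lower. Of these, 26 had a mean under 5 TPM, 24 were pseudogenes or gene models without a name, and 33 did not overlap between the genotypes.

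Sox11, the floxed gene, was at 56.1 and 50.1 TPM in heterozygous libraries and at 5.23 and 5.06 TPM in homozygous ones. The homozygous level was 9.69% of the heterozygous level, with no overlap and little spread within either genotype. The log2 difference was -3.14 (SE 0.19, 95% interval -3.58 to -2.69, limma adjusted p = 0.0070). Wild-type libraries had 192 and 130 TPM, so heterozygous and homozygous means were 33.0% and 3.19% of the wild-type mean. The difference of heterozygous from wild-type libraries did not pass the test (-1.56, limma adjusted p = 0.103). That of homozygous from wild-type libraries did (-4.69, limma adjusted p = 0.00078). Sox11 has 1 exon and lies on the minus strand at chr12:27334264-27342574 (GRCm38). The adjusted p of Sox11 was 0.0999 when homozygous replicate 1 was left out, with a log2 difference of -3.16. It was also above 0.05 with no filter on low values (0.078) and without limma's intensity trend (0.067).

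The other SoxC genes did not pass the test. Sox4 was at 233 and 201 TPM in heterozygous and at 212 and 191 TPM in homozygous libraries, a difference of -0.10 with a 95% interval from -0.50 to 0.29. Sox12 was at 58.0 and 54.3 TPM and at 65.9 and 54.3 TPM, a difference of 0.09 with an interval from -0.19 to 0.38. Both genes overlapped between the genotypes, and both intervals exclude a 2-fold change. Among 15 Sox genes tested, Sox11 alone was called, the median was 0.01, and the intervals of the remaining 14 lay within 1 log2 unit. In bulk tissue, fewer cells of a type and less RNA per cell cannot be told apart, for Sox11 and for every gene below.

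**Figure D3:**
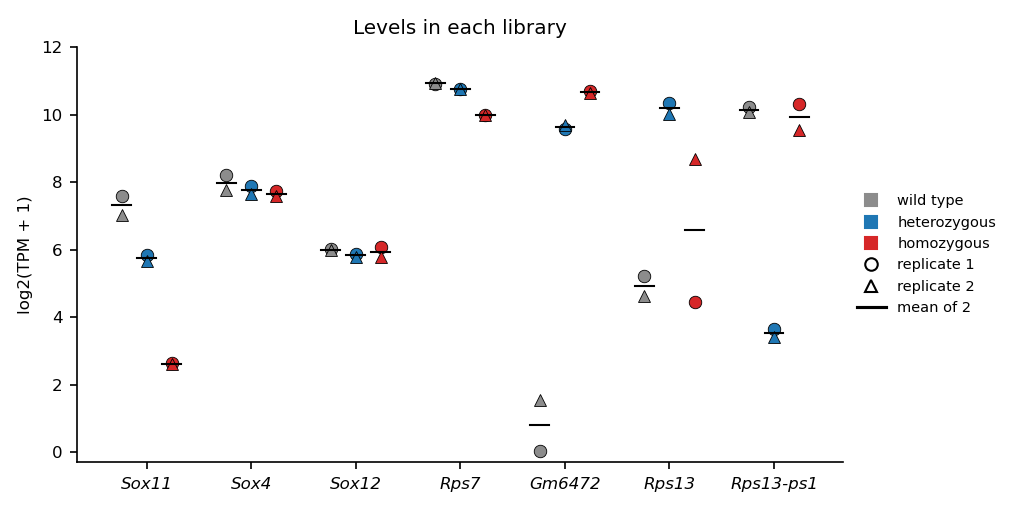
Log2(TPM + 1) (vertical) of the SoxC genes and of 2 ribosomal genes with their processed copies (horizontal) in wild-type, heterozygous and homozygous libraries, with circles for replicate 1, triangles for replicate 2 and bars for means. Sox11 is lower at each genotype step, whereas Sox4 and Sox12 overlap between heterozygous and homozygous libraries.

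The pseudogene that passed the test and the gene with the next lowest p form parts of 2 pairs of near-identical ribosomal sequences, in which a read from one member can match the other. A stretch of each parent transcript and its copy is shown from the GRCm38 sequence, in the sense direction, with the differing bases in capitals, because these bases are all that separates the members there.
Rps7: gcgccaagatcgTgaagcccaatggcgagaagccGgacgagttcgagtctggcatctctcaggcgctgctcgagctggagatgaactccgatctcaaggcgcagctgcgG
Gm6472: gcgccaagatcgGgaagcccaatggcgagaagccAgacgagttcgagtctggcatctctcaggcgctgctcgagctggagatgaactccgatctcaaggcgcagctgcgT
Rps13: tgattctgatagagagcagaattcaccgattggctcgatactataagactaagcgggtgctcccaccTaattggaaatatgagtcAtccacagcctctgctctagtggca
Rps13-ps1: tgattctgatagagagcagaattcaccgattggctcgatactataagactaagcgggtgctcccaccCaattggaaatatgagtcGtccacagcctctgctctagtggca

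The Rps7 stretch spans 2 exon blocks at chr12:28635440-28635641 (minus strand), and that of Gm6472 lies at chrX:152909998-152910107 (minus strand). The Rps13 stretch spans 2 exon blocks at chr7:116331553-116332457 (minus strand), and that of Rps13-ps1 lies at chr8:87048063-87048172 (plus strand). Counted from the start of the alignment, with the parent's base first, Rps7 and Gm6472 differed over 651 aligned bases at G14A, T61G, G83A and G158T, an identity of 99.39%. Rps13 and Rps13-ps1 differed over 522 aligned bases at T437C and A455G, an identity of 99.62%. Windows of 150 bases, the labelled read length, held no difference in 344 of 502 positions (68.5%) of the first pair and in 287 of 373 positions (76.9%) of the second. How the deposited values share such reads out is not given in the sources used here, so each member's own value is uncertain.

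Rps13-ps1, a processed pseudogene of the small-subunit protein gene Rps13, was listed at 11.5 and 9.67 TPM in heterozygous and at 1263 and 744 TPM in homozygous libraries. It rose by 6.39 on the log2 scale (SE 0.23, limma adjusted p = 0.00056) and did not overlap, while wild-type libraries, at 1197 and 1069 TPM, stood near the homozygous ones. The parent gene Rps13 went the other way, at 1308 and 1035 TPM in heterozygous and at 20.9 and 410.5 TPM in homozygous libraries, a difference of -3.62 (SE 1.17, limma adjusted p = 0.9999). The pair summed to 1182 ± 195 TPM in the heterozygous genotype and 1219 ± 91.5 TPM in the homozygous one (SD, n = 2), a difference smaller than either SD. The copy's share of that sum was 0.899% ± 0.0381 in heterozygous libraries (SD, n = 2), and 98.4% and 64.4% in homozygous replicates 1 and 2.

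Rps7, which encodes another small-subunit protein and lies 1293 kb from Sox11, was at 1726 and 1738 TPM in heterozygous and at 1014 and 1009 TPM in homozygous libraries. The genotypes were far apart beside a replicate spread of a few TPM, yet the difference of -0.78 (SE 0.09, 95% interval -0.99 to -0.56) missed the threshold (limma adjusted p = 0.306). Its copy Gm6472 was at 767 and 824 TPM in heterozygous and at 1656 and 1601 TPM in homozygous libraries, a difference of 1.03 (SE 0.42, adjusted p = 0.9999), and at 0.03 and 1.95 TPM in wild-type libraries. The pair summed to 2528 ± 48.4 TPM in the heterozygous genotype and 2640 ± 42.1 TPM in the homozygous one (SD, n = 2). That difference was larger than either SD, and wild-type libraries had a lower sum, 1940 ± 28.8 TPM (SD, n = 2). The share of Gm6472 in that sum went with the number of floxed alleles: 0.0505% ± 0.0692 with no floxed allele, 31.5% ± 0.988 with 1 and 61.7% ± 0.481 with 2 (SD, n = 2 each).

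Genes near Sox11 were read with this pair in view, since Rps7 shares the chromosome with Sox11. Within 10 Mb of the start of Sox11, 84 genes besides Sox11 were tested, Rps7 included, and 0 were called. Of these, 12 (14.3%, against 2.05% of all genes) had an unadjusted p under 0.05, and all 12 were lower in homozygous libraries. Rps7 prompted this look and is itself counted in that share, beside 11 others. The 12 comprised 8 of 19 pseudogenes and 4 of 64 protein-coding genes. The pseudogene CT030170.3 was at 14.3 and 14.1 TPM in heterozygous and at 4.57 and 6.57 TPM in homozygous libraries, a difference of -1.23 (SE 0.19). The protein-coding model 9030624G23Rik was at 11.1 and 9.25 TPM and at 6.82 and 5.99 TPM, a difference of -0.59 (SE 0.17). The 11 genes other than Rps7 lay 3245 to 9319 kb to one side of Sox11. The median of the 84 genes was -0.09, and that of the 64 protein-coding genes was -0.04.

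**Figure D4:**
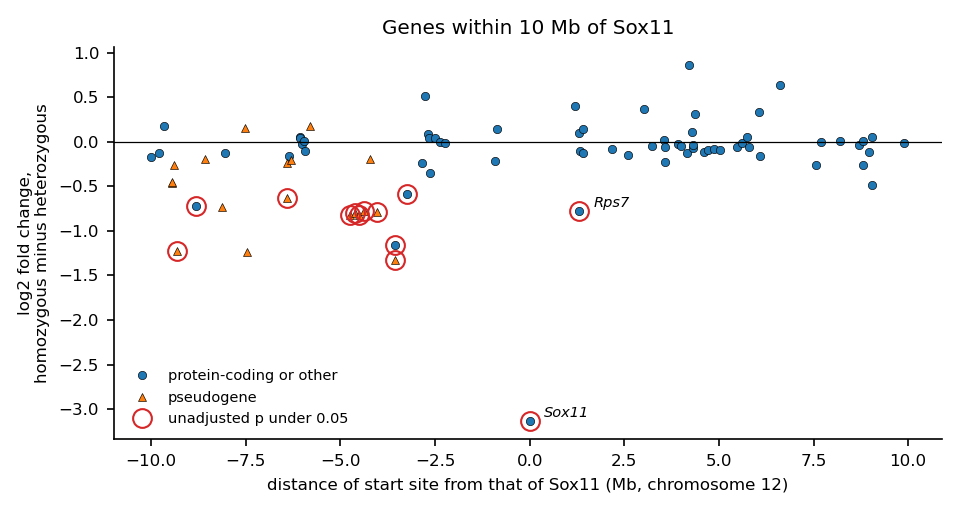
Log2 difference between homozygous and heterozygous libraries (vertical) for tested genes within 10 Mb of Sox11 on chromosome 12 against distance from its start in Mb (horizontal), with triangles for pseudogenes and red rings for an unadjusted p under 0.05. Ringed genes other than Sox11 and Rps7 lie together on one side of Sox11, and all ringed genes are below 0.

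Genes of newborn neurons were on the lower side, without any passing the test. Of 36 newborn and pan-neuronal genes, 24 were below 0 (45.9% of all genes were), 14 did not overlap on the lower side (13.7% of all genes did) and 3 on the higher side (15.4% of all genes), and the median was -0.07. None had a limma adjusted p under 0.05, and 5 had an unadjusted p under 0.05 (2.05% of all genes). Dcx, a microtubule-binding protein of migrating neurons, was at 284 and 296 TPM in heterozygous and at 236 and 188 TPM in homozygous libraries (log2 difference -0.46, SE 0.12). Stmn1, a tubulin-binding protein, was at 2539 and 2129 TPM and at 1752 and 1508 TPM (-0.52, SE 0.14). Gpc2, a glypican of growing axons, was at 66.7 and 51.2 TPM and at 36.4 and 25.4 TPM (-0.92, SE 0.24). In these genes both homozygous libraries were below both heterozygous ones.

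Of the tubulin genes in the list, Tuba1a was at 8033 and 7839 TPM in heterozygous and at 7119 and 6537 TPM in homozygous libraries, and Tubb5 at 1437 and 1388 TPM and at 1181 and 1193 TPM, differences of -0.22 and -0.25. The list's median was 0.04 between the replicate 1 libraries and -0.19 between the replicate 2 libraries, and it ran from -0.16 without heterozygous replicate 1 to -0.02 without heterozygous replicate 2. Markers of mature excitatory neurons were on the higher side in homozygous libraries, as given below, and their part in these differences was not tested.

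Genes of the dentate granule lineage showed less. Of 22 tested, 15 were below 0 (45.9% of all genes were), with a median of -0.05. On the lower side 8 did not overlap (13.7% of all genes) and on the higher side 3 (15.4%). An unadjusted p under 0.05 was found for 2 (2.05%), and 0 were called by limma. Draxin, a secreted axon guidance protein, was at 72.7 and 66.7 TPM in heterozygous and at 51.9 and 45.2 TPM in homozygous libraries (log2 difference -0.51, SE 0.14). Prox1, the transcription factor that specifies granule neurons, was at 54.3 and 82.0 TPM and at 76.5 and 74.1 TPM, and the genotypes overlapped. Neurod1, which drives granule neuron differentiation, was at 157 and 182 TPM and at 173 and 161 TPM, also with overlap. The step from wild type had a larger median for these genes, -0.54 between wild-type and heterozygous libraries. The list summed to 3910 and 3165 TPM in wild-type replicates and to 2470 and 2562 TPM in heterozygous ones. Draxin, Prox1 and Neurod1 were not called in that step.

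Progenitor genes lay around 0. The 27 radial glia genes had 13 members above and 14 below 0, a median of 0.00 and 27 of 27 intervals within 1 log2 unit. Fabp7, a fatty-acid-binding protein of radial glia, was at 3008 and 2849 TPM in heterozygous and at 2525 and 2573 TPM in homozygous libraries (log2 difference -0.20, SE 0.10). Pax6, a transcription factor of cortical radial glia, was at 26.6 and 21.3 TPM and at 22.9 and 23.2 TPM. The 17 intermediate progenitor genes tested had a median of -0.04, with Eomes at 50.5 and 53.2 TPM and at 39.7 and 54.2 TPM. The 15 Cajal-Retzius genes had a median of 0.06, with Reln at 197 and 208 TPM and at 187 and 262 TPM. No member of these 3 lists had an unadjusted p under 0.05.

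Mitotic genes lay on the lower side in homozygous libraries, and 1 heterozygous library was apart from the other 3. Of 52 genes of G2 and M phase, 50 were below 0 (45.9% of all genes were) and 27 did not overlap on the lower side (13.7% of all genes), with a median of -0.29. None was called by limma and 0 had an unadjusted p under 0.05. The summed level of the list was 1472 and 1100 TPM in heterozygous and 1014 and 1090 TPM in homozygous libraries, so heterozygous replicate 1 was high and the others were close together. The list's median was -0.54 between the replicate 1 libraries and -0.02 between the replicate 2 libraries, and -0.10 without heterozygous replicate 1. Cdk1, the mitotic kinase, was at 89.1 and 49.1 TPM and at 57.7 and 49.0 TPM. The 45 S phase genes had 33 members below 0 (45.9% of all genes were) and a median of -0.04. There were 0 calls and 1 member with an unadjusted p under 0.05. Tyms, which makes thymidylate, was at 25.5 and 23.3 TPM and at 18.3 and 18.7 TPM (log2 difference -0.38, SE 0.13).

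Genes of axon guidance and cell adhesion showed no common direction. Of 58 axon guidance genes, 35 were above and 23 below 0, with a median of 0.05. On the higher side 7 did not overlap (15.4% of all genes) and on the lower side 11 (13.7%). An unadjusted p under 0.05 was found for 2 (2.05% of all genes). These were Draxin and Cntn2, a contactin of growing axons, at 116 and 84.4 TPM in heterozygous and at 72.7 and 60.3 TPM in homozygous libraries (log2 difference -0.57, SE 0.17). Epha4, an ephrin receptor, was at 143 and 164 TPM and at 148 and 170 TPM. Of 52 genes of apical polarity and adherens junctions, 31 were above 0, 0 had an unadjusted p under 0.05, and the median was 0.02. On each side 6 did not overlap, beside 15.4% higher and 13.7% lower among all genes. Ctnnb1, which encodes the junction protein beta-catenin, was at 721 and 722 TPM and at 635 and 675 TPM (log2 difference -0.14, 95% interval -0.38 to 0.10), and 48 of the 52 intervals lay within 1 log2 unit.

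Genes of mature excitatory neurons and synapses were almost all on the higher side. Of 32 tested, 31 were above 0 (54.1% of all genes were), 7 did not overlap, all higher (15.4% of all genes did so), and the median was 0.30. No member was called by limma and 0 had an unadjusted p under 0.05. Slc17a7, the vesicular glutamate transporter, was at 104 and 233 TPM in heterozygous and at 240 and 393 TPM in homozygous libraries (log2 difference 0.97, SE 0.51). Syp, a synaptic vesicle protein, was at 229 and 360.1 TPM and at 366 and 432 TPM (0.47, SE 0.24). The summed level was 3159 and 4893 TPM in heterozygous and 4645 and 5652 TPM in homozygous libraries, so heterozygous replicate 1 was low and heterozygous replicate 2 was above homozygous replicate 1. Without heterozygous replicate 1 the median was 0.03, and without heterozygous replicate 2 it was 0.62.

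Choroid plexus and ependymal genes differed more between replicates than between genotypes. None of the 29 choroid plexus genes or the 72 genes of ependyma and motile cilia was free of overlap, called by limma, or had an unadjusted p under 0.05. Among all genes, 29% did not overlap and 2.05% had an unadjusted p under 0.05. The summed choroid plexus level was 12916 and 413 TPM in heterozygous and 7450 and 975 TPM in homozygous libraries, most of it Ttr. Its median difference was 0.14, but -0.49 between the replicate 1 libraries and 0.82 between the replicate 2 libraries. It turned negative without heterozygous replicate 2 (-1.18) and without homozygous replicate 1 (-0.72). Only 2 of its 29 intervals lay within 1 log2 unit, compared with 88.3% of all genes.

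The ciliary list had 64 of 72 members above 0 (54.1% of all genes were) and a median of 0.20. It summed to 1804 and 628 TPM in heterozygous and 1462 and 1035 TPM in homozygous libraries. Its median was -0.52 without heterozygous replicate 2 and -0.01 without homozygous replicate 1. Foxj1, the master regulator of motile cilia, was at 131 and 26.4 TPM and at 90.0 and 56.7 TPM, so the homozygous libraries lay between the heterozygous ones. Meningeal genes had 15 of 20 members above 0 (54.1% of all genes were) and 0 with an unadjusted p under 0.05. Their median of 0.27 was -0.55 without homozygous replicate 2. Ptgds, a prostaglandin synthase of the meninges, was at 1216 TPM in that library and at 60.6 to 108 TPM in the other 3.

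Glial lists differed in how they lay. Of 21 astrocyte genes, 14 were above 0 and 3 did not overlap, all higher, a share near the 15.4% of all genes, with a median of 0.12 that was 0.01 without homozygous replicate 2. Ntsr2, an astrocytic neurotensin receptor, was at 14.9 and 17.6 TPM in heterozygous and at 20.4 and 27.2 TPM in homozygous libraries (log2 difference 0.51, SE 0.18). Of 20 oligodendrocyte lineage genes, 13 were above 0 (54.1% of all genes were) and 5 did not overlap, all higher (15.4% of all genes). Their median of 0.36 was -0.03 without homozygous replicate 2. Mbp, a myelin protein, was at 76.2 TPM in that library and at 15.3 to 25.2 TPM in the other 3, while Olig1, a lineage transcription factor, was at 161 to 166 TPM in all 4. The 29 microglial genes had 17 members above and 12 below 0 and a median of 0.05, which was 0.25 without heterozygous replicate 1 and -0.16 without heterozygous replicate 2. No member of the glial lists was called by limma, and Ntsr2 was the 1 member with an unadjusted p under 0.05.

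Of 33 hypoxia and glycolysis genes, 25 were above 0 (54.1% of all genes were). On the higher side 11 did not overlap (15.4% of all genes) and on the lower side 3 (13.7%). An unadjusted p under 0.05 was found for 3 (2.05%), 0 were called, and the median was 0.13. This median was 0.11 between the replicate 1 libraries and 0.17 between the replicate 2 libraries, and 0.08 to 0.16 with any floxed library left out. Pfkp, a phosphofructokinase of glycolysis, was at 82.0 and 88.6 TPM in heterozygous and at 126 and 122 TPM in homozygous libraries (log2 difference 0.54, SE 0.13). Gapdh, another glycolytic enzyme, was at 737 and 777 TPM and at 792 and 1074 TPM (0.28, SE 0.15). The 79 cytosolic ribosomal protein genes had 66 members below 0 (45.9% of all genes were) and 23 not overlapping on the lower side (13.7% of all genes), with a median of -0.08 that was 0.00 without heterozygous replicate 1. Of these, 3 had an unadjusted p under 0.05, Rps7 and Rps13 among them, and 0 were called.

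Of the remaining lists, 24 immediate early genes had a median of 0.14, 22 genes of the p53 response and apoptosis -0.03, 20 genes of the GABAergic lineage -0.09, 23 endothelial genes -0.02, 7 erythroid genes 0.09 and 13 mitochondrial messenger RNAs 0.15. These medians depended on single libraries. With 1 floxed library left out, that of immediate early genes ran from 0.02 (without homozygous replicate 2) to 0.23 (without homozygous replicate 1), and that of GABAergic genes from -0.28 (without homozygous replicate 1) to 0.10 (without homozygous replicate 2). The endothelial median ran from -0.42 (without homozygous replicate 2) to 0.37 (without homozygous replicate 1). Leaving out heterozygous replicates 1 and 2 in turn gave 0.37 and -0.14 for erythroid genes, -0.10 and 0.35 for mitochondrial messenger RNAs, and 0.03 and -0.10 for the p53 response. Bax, a pro-apoptotic membrane protein, was at 207 and 187 TPM in heterozygous libraries and at 193 TPM in both homozygous ones. Sst, the somatostatin gene of interneurons, was at 194 and 240.0 TPM and at 181 and 113 TPM (log2 difference -0.58, SE 0.26). None of these lists had a member called by limma. The immediate early gene Dusp6 was among the 2 members with an unadjusted p under 0.05.

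**Figure D5:**
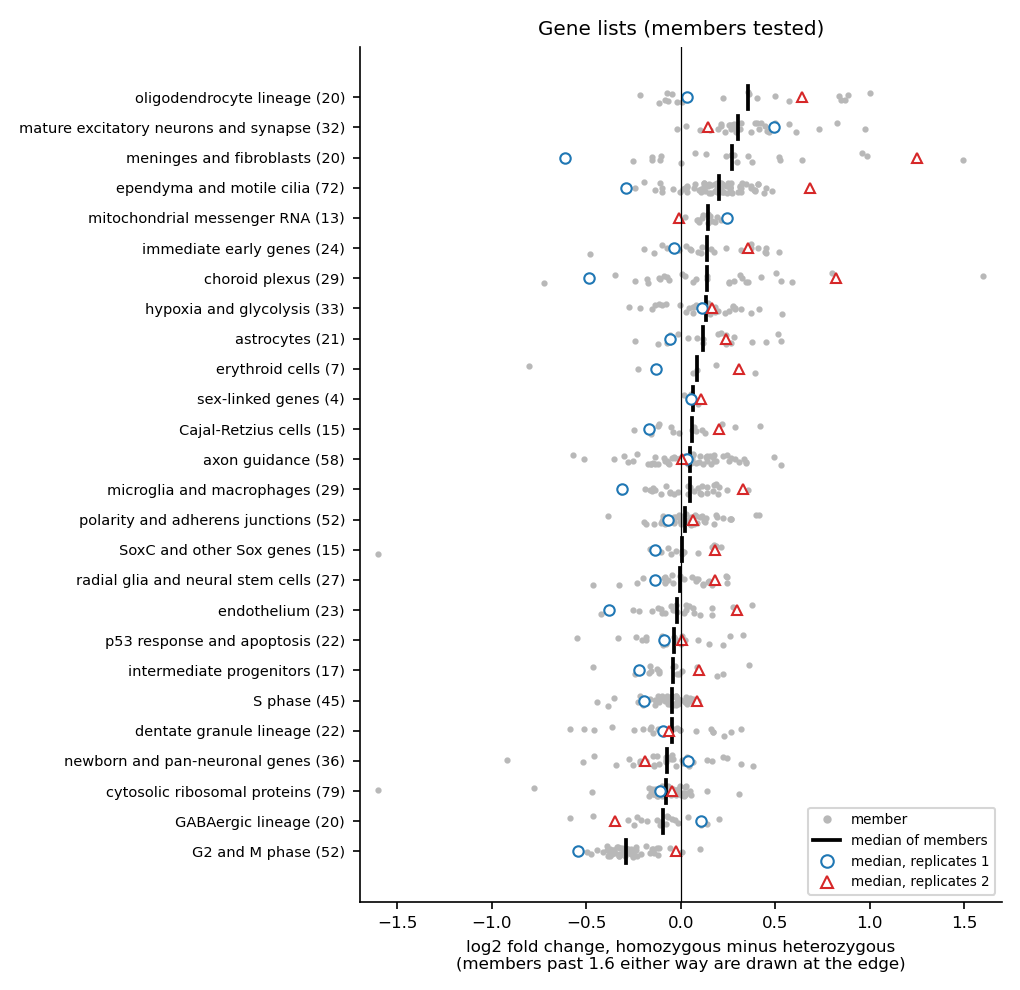
Log2 difference between homozygous and heterozygous libraries (horizontal) for the members of each gene list (grey points, rows), with the list's median as a bar and its medians between replicates 1 (open circle) and between replicates 2 (open triangle); members past the axis are drawn at its edge. The circle and the triangle lie far apart for choroid plexus (-0.49 and 0.82), ciliary and meningeal genes and close together for hypoxia and glycolysis (0.11 and 0.17).

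The clearest differences among better expressed genes were taken from non-overlapping genes that averaged 5 TPM or more, in order of unadjusted p. Besides Rps13-ps1, none on the higher side passed the test, each with a limma adjusted p of 0.9999. Cpeb1, which regulates translation by cytoplasmic polyadenylation, was at 5.03 and 6.99 TPM in heterozygous and at 11.2 and 14.1 TPM in homozygous libraries (log2 difference 0.96, SE 0.21). Tdo2, a tryptophan dioxygenase expressed in granule cells, was at 3.03 and 4.38 TPM and at 7.01 and 10.03 TPM (1.01, SE 0.24). Hap1, the huntingtin-associated protein, was at 44.2 and 45.1 TPM and at 66.4 and 58.7 TPM (0.47, SE 0.10). Rnf112, Plekhb1, Pfkp, Cpt1c, Coa4, Atg16l2, Cnnm1 and S100a4 made up the rest, with differences from 0.46 (Cpt1c) to 0.91 (Coa4).

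On the lower side, Sox11 passed the test and Rps7 came next. Dctn5, a dynactin subunit, was at 88.8 and 87.5 TPM in heterozygous and at 63.1 and 69.7 TPM in homozygous libraries (log2 difference -0.41, SE 0.10). Serpini1, which encodes the neuronal protease inhibitor neuroserpin, was at 55.6 and 57.5 TPM and at 42.3 and 33.3 TPM (-0.58, SE 0.14). Carhsp1, an RNA-binding protein, was at 139 and 93.6 TPM and at 72.2 and 60.5 TPM (-0.78, SE 0.21). Gpr21, Myl6b and Ube2d1 lay between -0.76 and -0.35, and Dcx, Gpc2 and Draxin, given above, were also in the group. All of these but Sox11 and Rps7 had a limma adjusted p of 0.9999 and were not called. Lack of overlap was a condition of the choice, and 29% of all genes met it.

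Genes called against wild type were next compared between the floxed genotypes. The comparisons with wild type share libraries with the one between floxed genotypes, so their values stand side by side with no test of their likeness. Heterozygous libraries differed from wild type in 5 genes (0.0344%) and homozygous libraries in 7 genes (0.0481%), by the same test. The filter used the floxed libraries alone, so genes expressed only in wild type were left out and genes low in wild type were kept, and these counts describe that set and support nothing further. Ccdc153, a gene of motile cilia, was at 0.59 and 0 TPM in wild-type, 56.5 and 36.9 TPM in heterozygous and 69.2 and 56.1 TPM in homozygous libraries. Tmem212, also of ciliated cells, was listed at 0 for wild-type replicates 1 and 2, at 21.1 and 11.2 TPM in heterozygous and at 21.9 and 19.9 TPM in homozygous ones. The heterozygous and homozygous values overlapped for both genes, with log2 differences of 0.44 (SE 0.29) and 0.41 (SE 0.29). Both passed the filter only through the floxed libraries. Myo7a, an unconventional myosin, was at 0.85 and 0.55 TPM in wild-type, 21.3 and 14.1 TPM in heterozygous and 6.89 and 12.4 TPM in homozygous libraries, which did not overlap between the floxed genotypes (-0.84, SE 0.32, limma adjusted p = 0.9999). Of the chromosome 12 pseudogenes, AC166358.6 was at 15.9 and 14.8 TPM in wild-type, 7.89 and 7.50 TPM in heterozygous and 3.91 and 3.93 TPM in homozygous libraries. CT030170.3, given above for the floxed genotypes, was at 22.38 and 23.95 TPM in wild-type libraries. Both were lower at each step, with an adjusted p of 0.9999 between the floxed genotypes. Myo7a lay outside the rule for named genes and was chosen because it was called between heterozygous and wild-type libraries (limma adjusted p = 0.048). That choice favours high heterozygous values, so the lower homozygous values of Myo7a are not free of it. Like Ccdc153 and Tmem212, Myo7a passed the filter only through the floxed libraries. Over all genes, the root mean square of the fitted difference was 0.230 between the floxed genotypes, 0.470 between heterozygous and wild type and 0.515 between homozygous and wild type.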

How the data were processed

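RNA selected with oligo(dT) was made into libraries with a TruSeq kit (version 2) and sequenced on a HiSeq 2500 with paired reads of 150 bases, per the labels' protocols. The authors deposited TPM values, 1 column per library. The series' design text names TopHat 2.0.11, Cufflinks 2.2.1 and mm10, and the submitters' processing notes name FastQC, RSEM, mm10 and GRCm38. How reads that match several genes were shared out is not given in the sources used here. TPM keeps no depth, so no counting intervals were computed.

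Genes averaging 1 TPM or more over the 4 floxed libraries were tested on log2(TPM + 1), which understates changes of low genes. limma 3.58.1 in R 4.3.3 fitted all 6 libraries with a term per genotype and an intensity trend (3 residual degrees of freedom), so that wild-type libraries share the estimate of spread. p-values were adjusted over all 14556 genes (Benjamini-Hochberg, threshold 0.05). An exact test of 2 against 2 libraries cannot go below 0.33. The fit was tested on simulated data. Of the tested rows, 96 share a symbol with another row, and they were kept apart. Positions and gene types came from GENCODE vM21 (34924 of 35274 rows matched), and copies were aligned with Biopython 1.88.

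The genes compared and the 26 gene lists were chosen with earlier results of these data known. Named genes are the SoxC genes, all genes called, up to 12 non-overlapping genes per direction averaging 5 TPM or more (by size among genes called, then by unadjusted p, leaving out gene models without a name), of each list the 4 highest and the 2 with the smallest p, and chromosome 12 genes within 10 Mb of Sox11 with an unadjusted p under 0.05 and at least 5 TPM. Pair members and cell type markers were added to these. Alternatives were another pseudocount, filter, scaling and set of libraries, a fit without the trend, and each library left out. 1 gene that the rule selects, on the lower side, is not reported here.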

Additional observations from a re-analysis of the deposited data

How the results depend on the processing

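Limma called 2 genes, Sox11 and Rps13-ps1. The count stayed at 2 with a pseudocount of 0.1 TPM, with a minimum of 5 TPM, after rescaling and with only the 4 floxed libraries. It was 1 with no filter on low values and without the trend (Sox11 lost, adjusted p = 0.078 and 0.067), and 1 among protein-coding genes, where the pseudogene was not tested. With each library left out in turn it ran from 1 to 5. Without homozygous replicate 1 Sox11 was lost (adjusted p = 0.0999), and without homozygous replicate 2 Rps13, Gm10184 and Gm10146 were added. Without the 2 floxed libraries with the most Ttr, which leaves 1 library a genotype and assumes that it varies like wild type, 10 genes were called, Ttr and Fmod among them. The log2 difference of Sox11 was -3.06 to -3.22 with a library left out and kept its sign in all settings. The genotypes share replicate numbers, but the labels do not say that a number marks a pair. Replicate differences of heterozygous and homozygous libraries correlated across genes with r = 0.346, those of wild-type and heterozygous libraries with r = 0.217, and those of wild-type and homozygous libraries with r = -0.0877. With the replicate block the count was 2 (Sox11 adjusted p = 0.00535), and 702 genes had an unadjusted p under 0.05 in place of 299. With the replicate block on only the 4 floxed libraries, a setting chosen after seeing the data, it was 1 (Sox11 -3.14, adjusted p = 0.094). Intervals within 1 log2 unit numbered 10754 to 19181 genes over all settings. The number of genes tested also varied, from 12056 with a minimum of 5 TPM to 21635 with no filter, the setting that gave 19181. Depth is unknown, so which low genes it limits cannot be given.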

Other observations

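Genes of the circadian clock, a list put together after values were seen, were mostly higher in homozygous libraries. Of 18 tested, 14 were above 0 (54.1% of all genes were), with a median log2 difference of 0.17. On the higher side 8 did not overlap (15.4% of all genes) and on the lower side 1 (13.7%), and 0 were called by limma. Because the list followed the values, these counts support nothing further. Dbp, a clock output transcription factor, was at 10.9 and 10.03 TPM in heterozygous and at 23.1 and 15.3 TPM in homozygous libraries (0.79, SE 0.22). The clock repressors Nr1d1 and Nr1d2 were at 8.15 and 11.6 TPM and at 15.2 and 17.3 TPM (0.68, SE 0.20), and at 15.0 and 18.4 TPM and at 25.4 and 23.7 TPM (0.54, SE 0.15). Per1, Arntl and Clock overlapped between the genotypes. The sources used here do not give the time of day at which tissue was taken.

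A further ribosomal gene model, Gm10260, was at 842 TPM in heterozygous replicate 1 and at 0.74 TPM in heterozygous replicate 2, and at 819 and 745 TPM in homozygous libraries. It was named after its values were seen, and it was called by limma when heterozygous replicate 1 was left out.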
